A study of Mus musculus with 8 samples.

Results

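Adenosine can be methylated at its N6 position by several enzymes other than the METTL3 complex, and the RNA of 6 genes for such enzymes and a partner protein was followed in the developing mouse retina. The genes were chosen by name as enzymes that methylate adenosine outside the METTL3 complex (*Mettl4*, *Mettl5*, *Mettl16*, *Pcif1* and *Zcchc4*) or as a partner of such an enzyme (*Trmt112*). All 6 were found among the 54532 genes of the deposited count table, each under a single identifier, and all 6 were among the 17998 genes that passed the filter on low counts. The question put to the data was whether RNA of these genes was higher where *Mettl3* had been deleted.

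Bulk RNA-seq was performed on 4 *Mettl3*-CKO and 4 control retinal samples of mouse pups labelled as postnatal day 7, while the study's methods give an age a day younger. *Mettl3*-CKO mice carried *Six3-Cre* together with 2 floxed alleles of *Mettl3*, so that deletion was driven in retinal progenitor cells. Cells that do not descend from these progenitors, such as blood vessels and microglia, keep the gene, and the study describes loss of METTL3 mainly for the central retina. The controls were littermates, whose Cre and floxed alleles are not given in the sources used here. The labels do not say how many pups or retinas made up a sample, so the p-values measure the spread between these samples.

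The METTL3-METTL14 heterodimer deposits most of the N6-methyladenosine (m6A) of messenger RNA, and the other methyltransferases act on separate substrates. METTL16 modifies the U6 small nuclear RNA and hairpins in the 3′ UTR of *Mat2a*, the gene for the enzyme that makes the methyl donor S-adenosylmethionine (SAM). METTL5, held stable by the small activator TRMT112, methylates the RNA of the small ribosomal subunit, and ZCCHC4 methylates that of the large subunit. PCIF1 methylates an adenosine next to the mRNA cap that already carries a 2′-O-methyl group, and METTL4 acts on an adenosine of the same kind in the U2 small nuclear RNA.

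The recognition sites of METTL16 are printed here because *Mat2a* is the target whose RNA can be read in these libraries. The motif searched was TACAGAGAA or TACAGAAAA, on the sense strand of GENCODE vM21 transcripts (GRCm38), in the transcript with the longest coding sequence of each gene. It was found at 6 places in the 3′ UTR of *Mat2a* and is shown with the 9-base motif in capitals and 10 bases on each side:
Mat2a site 1, chr6:72434235-72434263, minus strand: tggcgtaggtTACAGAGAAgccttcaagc
Mat2a site 2, chr6:72433451-72433479, minus strand: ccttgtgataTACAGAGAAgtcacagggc
Mat2a site 3, chr6:72433272-72433300, minus strand: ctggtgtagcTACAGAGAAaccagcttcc
Mat2a site 4, chr6:72433157-72433185, minus strand: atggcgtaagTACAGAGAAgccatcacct
Mat2a site 5, chr6:72433046-72433074, minus strand: caaggtgtccTACAGAAAAaccttgggtt
Mat2a site 6, chr6:72432938-72432966, minus strand: gctggtgtggTACAGAGAAgccagcttgt

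Site 5 was the only *Mat2a* site with the second form of the motif. Of 21014 protein-coding genes with an annotated 3′ UTR, 796 (3.79%) held at least 1 match, with no allowance for UTR length. *Mat2a* held 6, and no other gene held more than 4. None of the 6 member genes held a match in the 3′ UTR of its own transcript. A match is a description of the sequence and not a measured site of methylation.

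**Figure D1:**
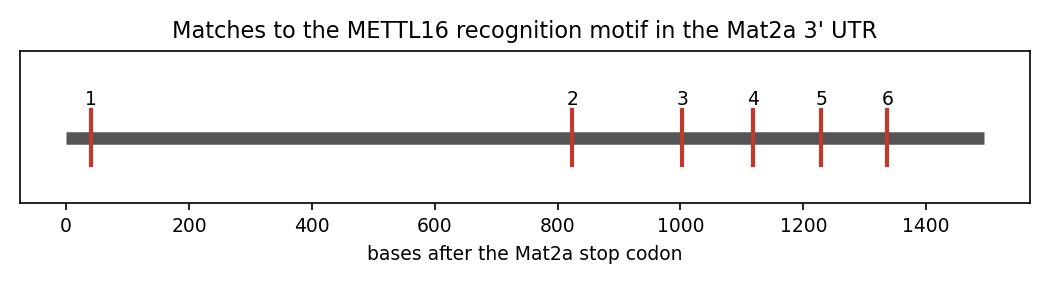
Position of each match to the METTL16 motif (red ticks, numbered as in the text) along the 3′ UTR of *Mat2a* (grey bar, 1494 bases), in bases after the stop codon. Site 1 lies 40 bases after the stop codon and the other 5 lie between 824 and 1337 bases after it.

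Total counts ranged from 17290701 to 20281517 in the *Mettl3*-CKO libraries and from 16227095 to 19310791 in the controls. Members were covered by 188 to 2869 counts per library, far above the 3 counts taken as the floor of detection. Marker genes of rods, cones, Müller glia, amacrine, bipolar, horizontal and ganglion cells were detected, and no gene of the 14 marker lists was at 0 in all libraries. Control replicate 4 had 4270 CPM (read counts scaled to library size) of summed lens markers against at most 69.8 CPM in any other library. The *Mettl3*-CKO libraries had 1380 to 1940 CPM of summed cycling progenitor markers against 944 to 1250 CPM in controls (2 of 6 genes called higher), and 1260 to 2340 CPM of rod markers against 2470 to 3530 CPM (5 of 6 called lower). Blood vessel, erythrocyte, pigment epithelium and astrocyte lists had 5 of 6, 2 of 3, 4 of 6 and 2 of 3 tested genes called lower, and 1 pigment epithelium gene was called higher. The summed levels of the erythrocyte, pigment epithelium and astrocyte lists were lower in every *Mettl3*-CKO library than in every control, at 4.28 to 7.25 against 14 to 26.3 CPM, 55.5 to 77.6 against 79 to 108 CPM, and 50.4 to 79.7 against 90.2 to 198 CPM. The summed blood vessel markers overlapped between the groups, at 532 to 633 CPM in *Mettl3*-CKO libraries against 519 to 639 CPM in controls. The summed bipolar and horizontal cell markers were higher in every *Mettl3*-CKO library than in every control, at 406 to 511 against 311 to 391 CPM and 105 to 117 against 57.2 to 97.5 CPM, with 1 of 4 tested genes called higher in each list and 1 bipolar gene called lower. Over all tested genes 6.49% were called higher and 4.05% lower. The part of these marker lists in the results below was not tested.

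*Mettl3*, counted over the whole gene, averaged 31.2 ± 2.24 CPM in controls and 24.1 ± 3.97 CPM after deletion (SD, n = 4 each). The change on the log2 scale was -0.38, with a standard error of 0.12 (edgeR, adjusted p = 0.0602), and *Mettl3*-CKO replicate 2, at 29.6 CPM, lay within the range of the controls. Of the exonic bases of *Mettl3*, 18.4% are shared with *Tox4* on the other strand.

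Levels were first compared between genes as FPKM, which corrects for gene length and library total. In every library *Trmt112* was highest, at 24.8 to 28.6 FPKM, followed by *Pcif1* at 15.4 to 22.9 FPKM and *Mettl4* at 7.77 to 11.7 FPKM. These 3 ranges did not overlap. *Mettl5* (4.04 to 5.81 FPKM), *Mettl16* (2.74 to 4.38 FPKM) and *Zcchc4* (2.10 to 3.35 FPKM) followed with ranges that overlapped from each gene to the next. *Mettl5* exceeded *Mettl16* in 8 of 8 libraries, and *Mettl16* exceeded *Zcchc4* in 6 of 8. These places rest on deposited lengths of 13817 bases for *Mettl16* and 10897 for *Zcchc4*, against 2437 for *Mettl5*. Without the correction for length, *Mettl16* averaged 52.7 CPM in *Mettl3*-CKO libraries and 39.2 CPM in controls, above *Mettl5* at 12.2 and 11.9 CPM. The FPKM of *Mettl4* rests on a gene model of 2150 bases, whereas GENCODE vM21 gives it 8036 exonic bases, so its place in this order depends on the annotation.

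**Figure D2:**
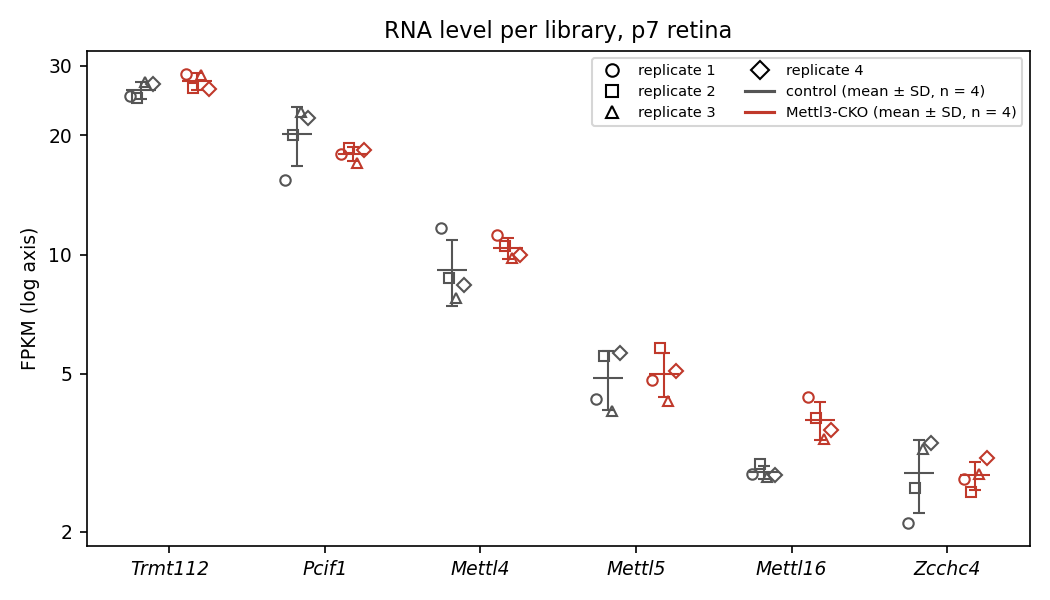
RNA level of the 6 genes in FPKM (vertical log axis) in each library, with bars for the mean ± SD of each group (n = 4). *Trmt112* and *Pcif1* are highest in all 8 libraries, and only for *Mettl16* do the *Mettl3*-CKO points (3.42 to 4.38 FPKM) lie wholly above the control points (2.74 to 2.97 FPKM).

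Changes between groups were then tested for each gene on its own counts. Of the 6 genes, 1 (*Mettl16*) passed an adjusted p of 0.05 as higher after deletion and none passed as lower. The p-values are from the quasi-likelihood test of edgeR and were adjusted after Benjamini and Hochberg across the whole tested table. Over all 17998 tested genes, 10.5% passed, with 6.49% higher and 4.05% lower, so that 1 gene of 6 is near the background. At an unadjusted p under 0.05 the count was also 1, and 0 were lower, but the share of all tested genes at that threshold was not counted. The groups did not overlap for 1 of the 6 genes, again *Mettl16*, against 17.4% of all tested genes. In bulk RNA a change in the number of cells of a type cannot be told apart from a change in RNA per cell.

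*Mettl16* (ENSMUSG00000010554) lies on chromosome 11 from 74770830 to 74828525 (GRCm38, plus strand), and shares no exonic bases with another gene in GENCODE vM21. After TMM scaling, *Mettl3*-CKO libraries 1 to 4 held 60.1, 53.8, 47.6 and 49.4 CPM of *Mettl16*. Control libraries 1 to 4 held 40.0, 40.8, 37.9 and 38.2 CPM. Every *Mettl3*-CKO library thus lay above every control, and the controls differed little among themselves.

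The *Mettl16* means were 52.7 ± 5.53 CPM and 39.2 ± 1.40 CPM (SD, n = 4 each), a log2 fold change of 0.43 with a standard error of 0.092 (edgeR, adjusted p = 0.0126). On the linear scale *Mettl16* rose 1.34-fold in *Mettl3*-CKO retinas, with a 95% interval from 1.17 to 1.54. The size of this change exceeded that of 81.2% of the tested genes, whose median absolute log2 fold change was 0.18. Leaving out each library in turn gave log2 fold changes of 0.36 to 0.48 with adjusted p from 0.00562 to 0.0424, all called. It was also called under all 8 other settings, with adjusted p from 0.00074 to 0.0318. *Mettl3*-CKO replicate 1, the highest for *Mettl16*, was also the highest for cycling progenitor markers (1940 CPM) and for bipolar markers (511 CPM). In *Mettl3*-CKO libraries 2 to 4 the summed bipolar markers were at 477, 406 and 438 CPM, in the same order as *Mettl16*. The cycling progenitor markers of these libraries were at 1800, 1660 and 1380 CPM. In control libraries 1 to 4 the bipolar markers were at 311, 368, 391 and 375 CPM, not in the order of *Mettl16*. Control replicate 3 was the highest control for bipolar markers and the lowest for *Mettl16*. The cycling progenitor markers of the controls were at 944, 1250, 1030 and 1070 CPM. Whether the share of either kind of cell has a part in the change was not tested.

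**Figure D3:**
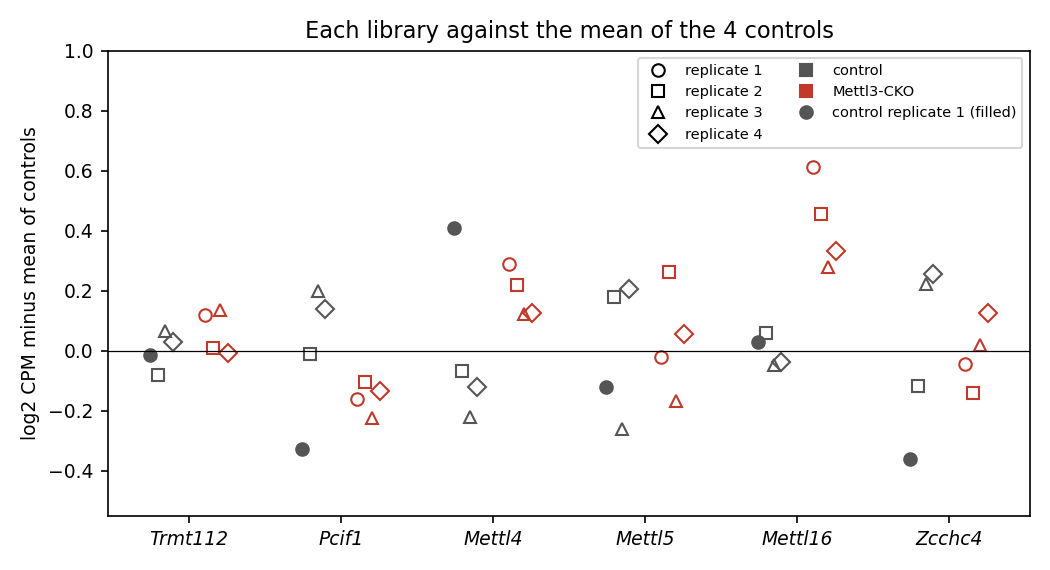
Level of each gene in each library as log2 CPM minus the mean of the 4 controls, with control replicate 1 filled. For *Mettl16* all 4 *Mettl3*-CKO libraries lie above the controls, and for *Mettl4*, *Pcif1* and *Zcchc4* control replicate 1 lies at the edge of the range of all 8 libraries.

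*Mettl4* (ENSMUSG00000055660), on chromosome 17 from 94727080 to 94749892 (GRCm38, minus strand), was at 23.9, 22.7, 21.2 and 21.3 CPM in *Mettl3*-CKO libraries 1 to 4. In the controls it was at 25.9, 18.6, 16.7 and 17.9 CPM. Control replicate 1 was thus above all *Mettl3*-CKO libraries and the other controls below them. The means were 22.3 ± 1.27 and 19.8 ± 4.17 CPM (SD, n = 4 each), a log2 fold change of 0.17 with a standard error of 0.13 (edgeR, adjusted p = 0.490). The 95% interval on the linear scale ran from 0.919-fold to 1.38-fold. Once control replicate 1 was left out, *Mettl4* stood 0.33 higher on the log2 scale (edgeR, adjusted p = 0.0343).

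*Pcif1* (ENSMUSG00000039849), on chromosome 2 from 164879304 to 164894454 (plus strand), was at 117, 122, 112 and 120 CPM in *Mettl3*-CKO libraries 1 to 4. The controls were at 104, 130, 150 and 144 CPM. Here control replicate 1 was the lowest of all libraries and the other controls were the highest. The means were 118 ± 4.18 and 132 ± 20.5 CPM (SD, n = 4 each), a log2 fold change of -0.17 with a standard error of 0.11 (edgeR, adjusted p = 0.367) with a 95% interval of 0.756-fold to 1.04-fold. Leaving out control replicate 1 moved the log2 value to -0.27 (edgeR, adjusted p = 0.0235). The annotated exons of *Pcif1* share 16.9% of their bases with *Zfp335* on the other strand, and whether counting used strand is not given in the sources used here.

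*Zcchc4* (ENSMUSG00000029179), on chromosome 5 from 52775409 to 52824665 (plus strand) with no exonic bases shared with another gene, was at 29.4, 27.5, 30.8 and 33.1 CPM in *Mettl3*-CKO libraries 1 to 4. The controls spread more widely, at 23.6, 27.9, 35.4 and 36.3 CPM. The lowest and the highest library were both controls, again with replicate 1 at the low end. The means were 30.2 ± 2.35 and 30.8 ± 6.09 CPM (SD, n = 4 each), a log2 fold change of -0.03 with a standard error of 0.13 (edgeR, adjusted p = 0.930). The 95% interval ran from 0.804-fold to 1.20-fold.

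Control replicate 1, on which *Mettl4* and *Pcif1* turned, differed from the other controls in several marker lists. Its summed rod markers were 3530 CPM against 2470 to 2880 CPM in the other controls, and its cycling progenitor markers 944 CPM against 1030 to 1250 CPM. Its summed Müller glial markers were 1100 CPM against 835 to 900 CPM, its astrocyte markers 198 CPM against 90.2 to 114 CPM and its microglial markers 87.6 CPM against 29 to 44.6 CPM. The part of these differences in the values of *Mettl4* and *Pcif1* was not tested.

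*Mettl5* and *Trmt112*, whose products form a heterodimer, did not pass the test. *Mettl5* (ENSMUSG00000051730), on chromosome 2 from 69871198 to 69885615 (minus strand), was at 11.7, 14.2, 10.5 and 12.3 CPM in *Mettl3*-CKO libraries 1 to 4 and at 10.9, 13.4, 9.86 and 13.7 CPM in the controls. The groups overlapped over nearly their whole range. The log2 fold change was 0.03 with a standard error of 0.14 (edgeR, adjusted p = 0.933), with a 95% interval of 0.823-fold to 1.27-fold. Of its exonic bases, 6.93% are shared with *Ssb* on the other strand.

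*Trmt112* (ENSMUSG00000038812), on chromosome 19 from 6909698 to 6911049 (plus strand), was at 35.0, 32.5, 35.4 and 32.1 CPM in *Mettl3*-CKO libraries 1 to 4 and at 31.9, 30.4, 33.7 and 32.9 CPM in the controls. It was the least variable of the 6 genes, with a biological coefficient of variation of 9.22% against a median of 13.8% over tested genes. The log2 fold change was 0.06 with a standard error of 0.083 (edgeR, adjusted p = 0.692), with a 95% interval of 0.924-fold to 1.18-fold. *Prdx5* and *Esrra* on the other strand share 33.2% and 5.92% of its exonic bases. Its pseudogene *Trmt112-ps2*, at 97 to 163 counts per library, may share reads with it, so that the level of *Trmt112* is uncertain.

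**Figure D4:**
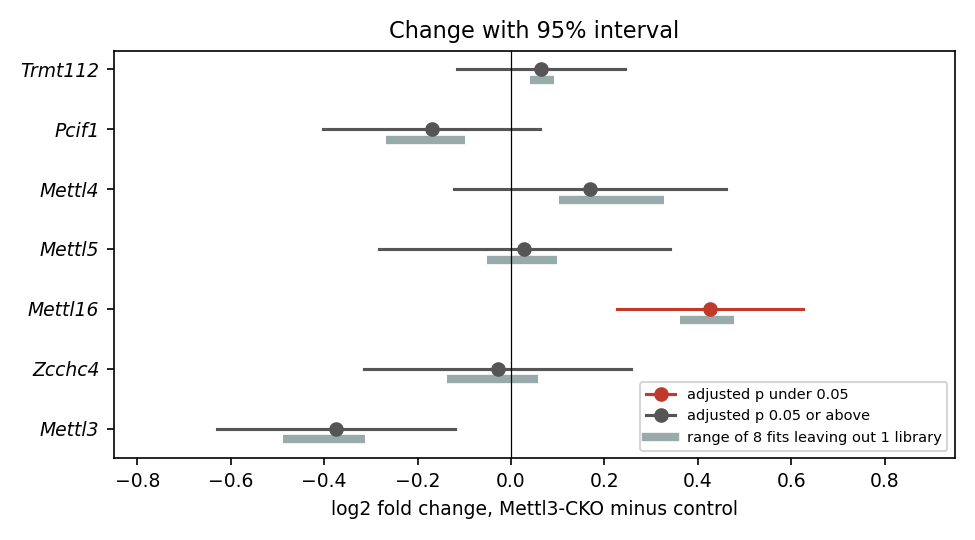
Log2 fold change (*Mettl3*-CKO minus control) of the 6 genes and of *Mettl3*, with its 95% interval and, as a grey bar, the range over 8 fits that each left out 1 library. The interval of *Mettl16* (0.23 to 0.62) lies above 0, and those of the other 5 genes include 0.

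Per length, *Trmt112* RNA stood at 4.49 to 6.76 times that of *Mettl5* in single libraries. The log2 ratio of *Mettl5* to *Trmt112* was -2.46 ± 0.24 in *Mettl3*-CKO retinas and -2.43 ± 0.27 in controls (SD, n = 4 each), a difference far within the spread. TRMT112 also activates 6 other methyltransferases, and with *Mettl5* these partners summed to 45.7 to 51.2 FPKM in *Mettl3*-CKO and 41.2 to 45.4 FPKM in control libraries. *Mettl5* made up 9.17% to 13.1% of that sum. *Trmt112* was at 0.544 to 0.640 times the sum of its partners, and the groups overlapped in this ratio.

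Of the 6 other TRMT112 partners, 1 was higher and none lower, against 6.49% and 4.05% of all tested genes. That gene was *Thumpd3*, a tRNA methyltransferase, which averaged 32.8 ± 3.38 CPM in controls and 42.3 ± 2.97 CPM in *Mettl3*-CKO libraries (SD, n = 4 each). Its log2 fold change was 0.37 (edgeR, adjusted p = 0.0299), and it was called in 10 of 16 other settings. When 1 library was left out the call held without *Mettl3*-CKO replicate 3 or control replicate 1 and was lost without any of the other 6 (adjusted p up to 0.0946). *Bud23*, a methyltransferase of the small-subunit rRNA, had a log2 fold change of 0.21 (edgeR, adjusted p = 0.225). The median of the list was 0.17, against -0.01 for all tested genes.

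Of 7 other rRNA base methyltransferases, 1 was higher and none lower, against 6.49% and 4.05% of all tested genes. It was *Nop2*, a cytosine methyltransferase of the large-subunit rRNA, at 47.8 ± 6.56 against 37.1 ± 3.29 CPM (SD, n = 4 each), with a log2 fold change of 0.36 and an adjusted p of 0.0495 from edgeR, at the edge of the threshold. *Dimt1*, which dimethylates adenosines of the small-subunit rRNA at the N6 position, had a log2 fold change of 0.19 (edgeR, adjusted p = 0.333). With 1 library left out, *Nop2* stayed called without *Mettl3*-CKO replicate 3 or control replicate 1, and was lost without any of the other 6 (adjusted p up to 0.14). The median of this list was 0.06.

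Among 8 genes of cap formation, decapping and cap-adjacent methylation around PCIF1, 1 was higher and none lower. Over all tested genes the shares were 6.49% and 4.05%. *Cmtr2*, a cap 2′-O-methyltransferase, was at 26.0 ± 2.15 against 19.8 ± 2.71 CPM (SD, n = 4 each), a log2 fold change of 0.40 (edgeR, adjusted p = 0.0483) that was called in 7 of 16 other settings. Of the fits that left out 1 library, the one without control replicate 1 kept the call (adjusted p = 0.0164) and the other 7 did not (adjusted p up to 0.15). *Cmtr1*, which makes the 2′-O-methyl group that PCIF1 needs on the first nucleotide, had a log2 fold change of 0.14 (edgeR, adjusted p = 0.632). *Fto*, a demethylase of the mark PCIF1 makes, was at 160 ± 5.76 and 166 ± 12.6 CPM (SD, n = 4 each), with a log2 fold change of -0.05 (edgeR, adjusted p = 0.768). The list median was 0.05.

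On the METTL16 side, *Mat2a*, whose 3′ UTR holds the 6 sites shown above, was at 292, 330, 324 and 317 CPM in *Mettl3*-CKO libraries 1 to 4 and at 406, 378, 325 and 332 CPM in the controls. *Mettl3*-CKO replicate 2 lay within the range of the controls, and the other 3 lay below it. The means were 316 ± 17.0 and 360 ± 38.3 CPM (SD, n = 4 each), a log2 fold change of -0.19 with a standard error of 0.091 (edgeR, adjusted p = 0.222) with a 95% interval of -0.39 to 0.01. Counts per gene do not tell spliced *Mat2a* RNA from RNA with the retained intron. Of the 10 genes of the SAM cycle, 8 were tested and none of these was called, against 10.5% of all tested genes. The list median was 0.05. *Bhmt* was at 0 counts in every library and *Mat1a* was below the filter.

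Of 6 genes that mature or cap the U6 RNA, 1 was lower and none higher, against 4.05% and 6.49% of all tested genes. *Usb1*, the exonuclease that trims the 3′ end of U6, was at 18.7, 18.3, 23.5 and 20.9 CPM in *Mettl3*-CKO libraries 1 to 4 and at 36.0, 32.3, 22.6 and 30.2 CPM in the controls. Control replicate 3 fell among the *Mettl3*-CKO libraries, and the other controls lay above them. The log2 fold change was -0.57 with a standard error of 0.14 (edgeR, adjusted p = 0.0222), and it was called in 11 of 16 other settings. The call was lost without *Mettl3*-CKO replicate 1 (adjusted p = 0.0913), *Mettl3*-CKO replicate 2 (0.0645) or control replicate 2 (0.0675). The list median was 0.05.

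Among the 8 genes of the METTL3 complex itself, 4 were higher and none lower, against 6.49% and 4.05% of all tested genes. The list median was 0.31. *Rbm15*, which guides the complex to RNA, was at 89.0, 72.8, 64.7 and 63.6 CPM in *Mettl3*-CKO libraries 1 to 4 and at 20.5, 32.0, 37.4 and 38.2 CPM in the controls, with no overlap. Its log2 fold change was 1.18 with a standard error of 0.17 (edgeR, adjusted p = 0.00171). *Wtap*, *Virma* and *Rbm15b* had log2 fold changes of 0.47, 0.30 and 0.32 (edgeR, adjusted p = 0.00566, 0.0366 and 0.0284). *Mettl14*, the partner of METTL3, did not pass, at -0.14 (edgeR, adjusted p = 0.503). The number of called genes in this list fell to 2 without *Mettl3*-CKO replicate 1 or without control replicate 2, while *Rbm15* and *Wtap* were called in all 16 other settings.

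**Figure D5:**
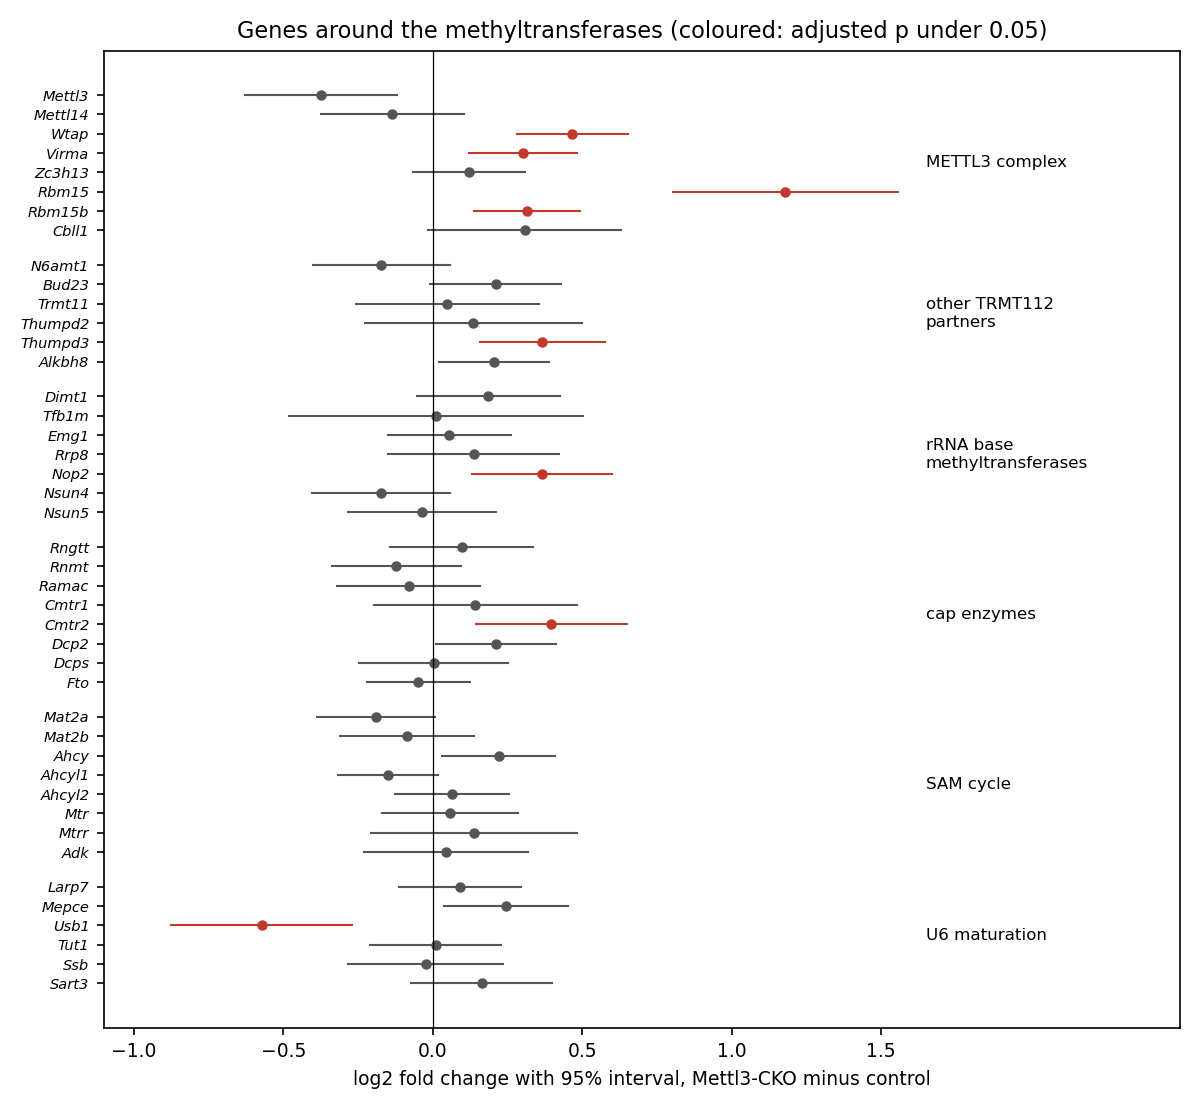
Log2 fold change (*Mettl3*-CKO minus control) with 95% interval for each tested gene of 6 lists around the methyltransferases, red where the adjusted p was under 0.05. Red points above 0 are 4 genes of the METTL3 complex, *Thumpd3*, *Nop2* and *Cmtr2*, and the only red point below 0 is *Usb1*.

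The gene with the profile most like that of *Mettl16*, *Zcchc4*, *Pcif1*, *Mettl4* or *Trmt112* over the 8 libraries was taken from 14316 other genes with a mean log2 CPM of at least 1, by Pearson correlation of log2 CPM. For *Mettl16* it was *Zfp119a* (r = 0.996), for *Zcchc4* *Trip12* (0.992), for *Pcif1* *Gtf2ird1* (0.989) and for *Mettl4* *Hars* (0.981). For *Trmt112* it was *3110053B16Rik* (0.905). The 8 points of each pair share the difference between groups and the library totals and are given as a description. A correlation above 0.9 was reached by 495 genes for *Mettl16*, 214 for *Pcif1*, 135 for *Mettl4*, 77 for *Zcchc4* and 1 for *Trmt112*.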

How the data were processed

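RNA-seq of whole retina was analysed in 4 *Mettl3*-CKO and 4 control samples. Per the methods and the labels, the authors removed low-quality reads, aligned the rest to GRCm38 with Hisat2, and summed reads over genes with featureCounts. The values the authors deposited are raw read counts per gene, and all 8 columns of them were matched to samples by label. Annotation release and strand setting are not given in the sources used here.

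The test was run with edgeR 4.0.16 (R 4.3.3): filterByExpr by group, TMM scaling, glmQLFit and glmQLFTest, with Benjamini-Hochberg adjustment over all tested genes and a threshold of 0.05. The standard error was the absolute log2 fold change divided by the square root of F, and 95% intervals used the t quantile at the test's degrees of freedom. FPKM was computed from counts, deposited gene lengths and library totals. CPM in the text is after TMM scaling, except sums over marker lists, which use library totals. Log2 CPM used a prior count of 2. Alternatives were limma 3.58.1 (voom, weighting samples by quality), DESeq2 1.42.0, other scalings, no filter, a replicate block, other thresholds and libraries left out. Where the text counts the other settings that called a single gene, all of them are at the threshold of 0.05. Fits were tested on simulated data.

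Members and lists were chosen with earlier results of these data known. Named genes are the members, *Mettl3*, list genes past the threshold, 6 list genes named whatever their value (*Mat2a*, *Mettl14*, *Bud23*, *Dimt1*, *Cmtr1*, *Fto*) and the gene most like each member, which for *Mettl5* is not reported here. *Bhmt* and *Mat1a* are named outside this rule, after their values were seen. *Ramac* is under an older symbol in the table and was matched by Ensembl identifier. Site sequences come from GENCODE vM21.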

Additional observations from a re-analysis of the deposited data

Results flagged for a closer look

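Dixon's test for a single distant library was applied within each group of 4, to the genes given by library and to the marker sums. Of 70 such groups, 5 held a library past its 95% critical value, where chance flags about 1 in 20. *Dimt1* was low in control replicate 3, at 3.93 on the log2 CPM scale against 4.25 to 4.26 in the other controls. *Cmtr1* was high in *Mettl3*-CKO replicate 3, at 3.61 against 3.39 to 3.42. The summed ganglion cell markers were high in control replicate 1, at 487 CPM against 334 to 360 CPM, and in *Mettl3*-CKO replicate 1, at 421 CPM against 404 to 405 CPM. The summed lens markers were high in control replicate 4, at 4270 CPM against 3.72 to 69.8 CPM. No value of *Mettl4*, *Mettl5*, *Mettl16*, *Pcif1*, *Zcchc4* or *Trmt112* was beyond the critical value in its group.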

How the results depend on the processing

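With each library left out in turn, the log2 fold change ran from 0.36 to 0.48 for *Mettl16*, 0.10 to 0.33 for *Mettl4*, -0.27 to -0.10 for *Pcif1*, -0.05 to 0.10 for *Mettl5*, -0.14 to 0.06 for *Zcchc4*, 0.04 to 0.09 for *Trmt112* and -0.49 to -0.31 for *Mettl3*. The sign of *Mettl5* was negative without *Mettl3*-CKO replicate 2 (-0.051), control replicate 1 (-0.013) or control replicate 3 (-0.050), and that of *Zcchc4* positive without *Mettl3*-CKO replicate 2 (0.016), control replicate 3 (0.050) or control replicate 4 (0.059). Limma voom with sample quality weights gave 3 called members, adding *Mettl4* (0.30, adjusted p = 0.0464) and *Pcif1* (-0.25, adjusted p = 0.0348), and put *Mettl5* at -0.0012. Over all 17998 tested genes voom called 2142 higher and 1568 lower, against 1168 and 729 in the main fit. The cause of these differences between fits was not tested. *Mettl3* passed with DESeq2 (-0.38, adjusted p = 0.0269), with voom (-0.39, adjusted p = 0.0139) and without *Mettl3*-CKO replicate 2 (-0.49, adjusted p = 0.0185).

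Called members numbered 1 to 3 over the fits that left out 1 library, with 3 only without control replicate 1, and 1 without control replicates 1 and 4 together. Without control replicate 1, 1882 of 18235 tested genes were called higher and 1289 lower, against 1168 and 729 of 17998 in the main fit. At an adjusted p under 0.01 the count was 0 for the members and for the lists of TRMT112 partners, rRNA methyltransferases, cap enzymes and U6 maturation, and 2 for the METTL3 complex. With 1 library left out, the METTL3 complex had 2 to 4 called genes and each of those 4 lists 0 to 1. *Cmtr2* was lost (0 called) with RLE size factors and upper-quartile factors, *Nop2* (0 called) with RLE size factors and without control replicates 1 and 4 together, and *Usb1* (0 called) without that pair of controls. The SAM cycle list had 0 calls throughout.

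In the labels, same-numbered libraries of the 2 groups share only a number, and whether they share anything else is not given. The correlations of their deviations from the group means were -0.11, 0.22, -0.11 and 0.25. With the replicate number as a block, 1198 genes were higher and 660 lower, against 1168 and 729, and 2 of the 4 *Mettl3*-CKO libraries correlated best with their own number. *Mettl16* then had a log2 fold change of 0.42 (adjusted p = 0.0151), the U6 list had 0 calls, and no call of a member changed. Of 244 values recomputed under other settings, 192 kept their direction and side of the threshold or, for counts, stayed within 1.5 times.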

Other observations

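The ratio of *Mettl5* to *Trmt112*, described above by group, also lay close between libraries that share a replicate number. On the log2 scale of FPKM it was -2.57 in *Mettl3*-CKO and -2.54 in control replicate 1, -2.18 and -2.17 in replicate 2, -2.74 and -2.76 in replicate 3, and -2.36 and -2.25 in replicate 4. The deposited labels give the number no meaning across groups. This was noticed after the values had been seen, and no test was run on it.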
